A study of Homo sapiens with 9 samples.

Results

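The clustered protocadherin genes on human chromosome 5 (PCDHA, PCDHB and PCDHG) were examined for DNA methylation in HEK293T cells that received an empty vector or a plasmid for 1 of 2 forms of the dioxygenase TET1. Members were the CCCGGG sites between 140160000 and 140900000 of chromosome 5 (hg19) with a value in at least 2 libraries of each group. Of 139 sites listed in this window, 8 met this rule, out of 64313 sites that met it across the genome. The PCDHA span (140160000 to 140400000) held 1, the PCDHB span (140425000 to 140640000) held 1 and the PCDHG span (140700000 to 140900000) held 6. The 3 low sites lay in the 3 different spans, and the 5 others formed a methylated stretch of 1528 bases in PCDHG. None of the 8 passed the site test between any groups.

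HEK293T is an embryonic kidney line that contains the SV40 T-antigen. All groups were transfected with pIRES plasmids by lipofection, and DNA was taken 4 days later. The empty vector, TET1-ALT and TET1-FL groups each had 3 libraries, grouped by their titles, since the label for the plasmid repeats the cell line. TET1 oxidises 5-methylcytosine. The full-length protein (TET1-FL) has a CXXC domain with affinity for CpG-rich DNA free of methylation, and the study's title names an isoform lacking it. The plasmid's promoter, the share of cells that took it up and the amount of each TET1 form were not given in the labels or measured in these files. Replicates are numbered but not said to be separate cultures, so the p-values reflect the spread among these libraries and that spread may be technical.

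Clustered protocadherins are cell adhesion proteins of the cadherin superfamily, best known for giving single neurons a surface identity. In the PCDHA and PCDHG clusters, each of many variable first exons has a promoter of its own and is spliced to constant exons shared by the cluster, whereas each PCDHB gene is a single exon. In neurons a cell uses a few of these promoters, and promoters that are not used carry DNA methylation, which prevents binding of the insulator protein CTCF. Members of a cluster arose by duplication and resemble each other in sequence.

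The assay, digital restriction enzyme analysis of methylation (DREAM), reads methylation only at CCCGGG. SmaI cuts the unmethylated sequence first, XmaI then cuts what is left, and the ends of the fragments tell the states apart. This sequence was uncommon at the start of protocadherin genes. RefSeq (GRCh38.p14) gave a promoter window of 300 bases, 250 before and 50 after the start, for 47 of the 53 protein-coding genes of the clusters. CCCGGG, which reads the same on both strands, occurred in the windows of 3 genes (6.38%), all of them PCDHG genes, compared with 4909 of 15842 protein-coding genes with a window (31.0%). No window of 13 PCDHA or 14 PCDHB genes held it. These 3 are printed to show where the enzyme site lies at a protocadherin start. The enzyme site is in capitals, on the gene's own strand (+) from 5′ to 3′. The build of these sequences differs from that of the measured sites, so it cannot be told here which listed site each corresponds to.
PCDHGB6 (chr5:141408062-141408147, GRCh38.p14): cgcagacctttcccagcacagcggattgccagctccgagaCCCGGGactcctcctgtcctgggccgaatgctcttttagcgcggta
PCDHGC3 (chr5:141475913-141475998, GRCh38.p14): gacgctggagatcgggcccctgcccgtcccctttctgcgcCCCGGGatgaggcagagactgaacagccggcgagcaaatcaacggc
PCDHGC4 (chr5:141484919-141485004, GRCh38.p14): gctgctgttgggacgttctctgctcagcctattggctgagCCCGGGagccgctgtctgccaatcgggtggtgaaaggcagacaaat
The last base of the enzyme site lies 96 bases before the start in PCDHGB6, 8 before it in PCDHGC3 and 66 before it in PCDHGC4.

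Listed sites of the window were measured less often than elsewhere. The 8 members are 5.76% of the 139 listed, beside 14.8% of 203 listed sites in the flanks (500000 bases on each side) and 16.8% of 382150 listed sites outside the window. Of the other 131 sites in the window, 129 had no value in any library. A further 2 sites, in PCDHG at 140857100 and 140857734, had values in the same 3 libraries, none of them an empty vector library, and did not meet the rule. The first had 86.4% and 66.7% in TET1-ALT replicates 2 and 3 and 71.5% in TET1-FL replicate 3. The second had 38.8%, 55.3% and 59.9% in the same libraries.

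Fragments in this assay run between neighbouring CCCGGG sites and were size selected, so the measured share was also compared at like spacing. Sites whose nearest listed neighbour was over 1000 bases away were rarely measured anywhere, at 0 of 85 in the window and 0.160% outside it. Among sites with a neighbour at 200 to under 500 bases, 4 of 11 (36.4%) were measured in the window and 57.3% outside it. At 500 to 1000 bases the shares were 13.3% of 15 and 15.5%. At 100 to under 200 bases, by contrast, 2 of 26 (7.69%) were measured in the window, beside 76.1% of 20576 outside it. Those 2 were in PCDHG, and the other 24 were all in PCDHB.

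**Figure D1:**
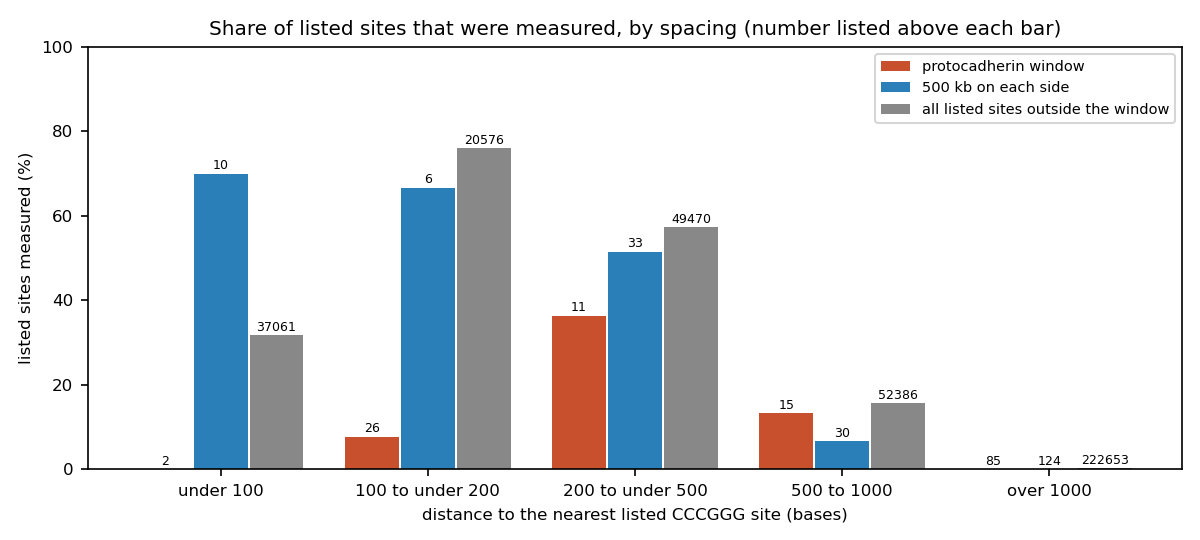
Share of listed CCCGGG sites that were measured (vertical axis, percent) by distance to the nearest listed site (horizontal axis, bases), for the protocadherin window, the flanks and all listed sites outside the window, with the number of listed sites above each bar. At 100 to under 200 bases the window has 7.69% and the sites outside it 76.1%.

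The 24 unmeasured PCDHB sites formed 12 pairs, each exactly 104 bases apart. The first pair was at 140476113 and 140476217 and the last at 140626879 and 140626983. Successive pairs began 4516 to 34780 bases apart, with a median of 7222, and the pairs made up 45.3% of the 53 sites listed in PCDHB. Sites 104 bases apart occurred in 0 pairs in PCDHA and PCDHG, and at most 3 such pairs fell within any stretch of the same length outside the window. None of the 12 pairs had a value in any library at either site. Outside the window 113 of 124 pairs with this spacing (91.1%) had a value at 1 site or both. The spacing pattern was noticed after the values were seen, and how reads from these pairs were aligned or filtered was not tested. In all, 52 of the 53 sites listed in PCDHB had no value.

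**Figure D2:**
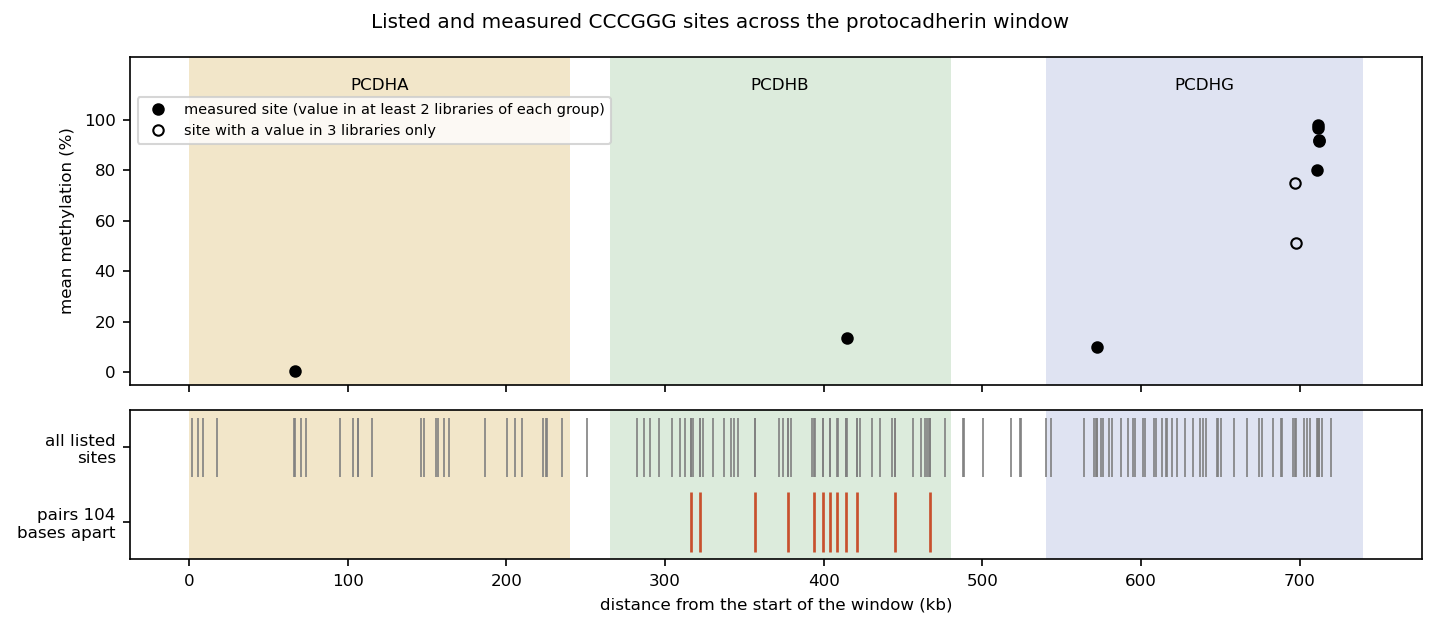
Upper panel, mean methylation over the libraries with a value (percent) against distance from the start of the window (kb), with filled points for the 8 members and open points for the 2 sites with values in 3 libraries only. Lower panel, all 139 listed sites and the 12 pairs 104 bases apart, all of which lie in PCDHB and have no value.

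By their means, the measured sites were low or highly methylated, but PCDHG site 2 was close to the limit between classes. By the mean over all libraries, 1 member was under 5%, 2 were at 5 to 20%, 0 at 20 to 80%, 3 at 80 to 95% and 2 over 95%. Among all 64313 sites the shares of these classes were 37.5%, 5.91%, 25.3%, 22.5% and 8.75%, and 6 of 30 measured flank sites were at 20 to 80%. PCDHG site 2 averaged 80.3%, and 5 of its 8 libraries were below 80%. The 2 sites outside the rule averaged 74.9% and 51.3% over their 3 libraries. With 8 members from 4 separate places, these shares describe only the sites the assay reached.

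The PCDHA site, at 140226575, was almost unmethylated. Its level was 0.32%, 0.40% and 1.87% with the empty vector, 0.24%, 0.54% and 0.11% in TET1-ALT, and 0.28%, 0.62% and 0.36% in TET1-FL. Empty vector replicate 3, which had the fewest sites of all libraries, stood above the other 8. The difference of TET1-FL from the empty vector was -0.44 points (95% limma interval -1.34 to 0.457, adjusted p = 0.738) and 0.06 without that library. The difference of TET1-ALT was -0.57 points (-1.47 to 0.334, limma adjusted p = 0.829) and -0.0633 without it. The site's only listed neighbour within 1000 bases, 522 bases upstream, had no value.

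The PCDHB site, at 140574409, was at a low level. The empty vector libraries had 17.5%, 13.5% and 9.52%, TET1-ALT 14.07%, 14.5% and 17.2%, and TET1-FL 13.05%, 11.2% and 13.2%. The empty vector libraries covered the whole range of the other 6. TET1-FL lay below TET1-ALT without overlap, at 12.5% ± 1.13 (SD, n = 3) against 15.3% ± 1.67 (SD, n = 3). This difference was -2.77 points (95% limma interval -7.32 to 1.79, adjusted p = 0.979). It was the only 1 of 8 members without overlap in this comparison, beside 7.38% of all sites with TET1-FL lower and 2.14% with it higher. Its neighbour 447 bases upstream belongs to one of the pairs 104 bases apart.

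The first PCDHG site, at 140732027, was also low. It had 9.47%, 8.57% and 12.4% with the empty vector, 10.07%, 9.50% and 7.60% in TET1-ALT, and 9.50%, 11.5% and 12.2% in TET1-FL. All pairs of groups overlapped. The differences were 0.91 points for TET1-FL from the empty vector (95% limma interval -1.99 to 3.81, adjusted p = 0.845) and -1.07 for TET1-ALT (-3.97 to 1.83, limma adjusted p = 0.918). Without empty vector replicate 3 the latter was 0.0367. Listed neighbours at 369 and 453 bases had no value.

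The other 5 PCDHG sites lay together from 140870702 to 140872230, and no other listed site came between them. Their means over all libraries were 80.3%, 98.1%, 96.9%, 91.7% and 91.9% from first to last. PCDHG site 3, the next after the first of the stretch, was the highest of the 5 in 8 of 9 libraries, and PCDHG site 4 in the other. PCDHG site 2 was the lowest in 7 of the 8 libraries that had it. Sites 5 and 6, 129 bases apart, differed by 0.157 points in their means, sites 3 and 4, 301 bases apart, by -1.22, and sites 4 and 5, 510 bases apart, by -5.16. Sites 2 and 3, 588 bases apart, differed by 17.8 points. Among 5300 neighbouring measured pairs across the genome at 129 to 588 bases with both means at 80% or more, the median absolute difference was 3.89 points.

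The members were also set beside other sites of like density. PCDHG sites 3 to 6 had 3 or 4 other listed sites within 1000 bases. Across the genome, 24.2% of 20018 measured sites with 3 to 5 such neighbours were at 80% or more and 56.9% under 20%. All 4 members of that density were at 80% or more, but they are neighbours of each other and count as a single place. The stretch was picked out by its level, so this count is no test. The 4 members with 0 to 2 such neighbours were PCDHG site 2 and the 3 low sites. Of these, 1 was at 80% or more and 3 were under 20%, beside 37.2% and 32.4% of 38900 sites of that density.

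PCDHG site 2, at 140870702, varied most. It had 83.5% and 90.1% with the empty vector, where replicate 3 had no value, 75.2%, 74.2% and 75.4% in TET1-ALT, and 97.4%, 78.3% and 68.5% in TET1-FL. Its standard deviation between replicates, pooled over groups, was 8.90 points, beside a median of 2.11 for sites of 80 to 95%. In that class 99.4% of sites had a smaller one. The TET1-ALT libraries lay below both empty vector libraries, a difference of -11.9 points (95% limma interval -30.2 to 6.40, adjusted p = 0.817). Without overlap, 10.6% of all sites had TET1-ALT below the empty vector and 3.51% above it. These shares are not like for like, since 59751 of the 64313 sites had values in all 9 libraries. Ranges lie apart more easily with 2 empty vector libraries than with 3. TET1-FL overlapped the empty vector, with a difference of -5.42 (-23.7 to 12.9, limma adjusted p = 0.853), which was 1.03 without TET1-FL replicate 3.

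The methylated sites measured more precisely were PCDHG sites 3 to 6. Site 3, at 140871290, had 97.4%, 99.3% and 99.0% with the empty vector, 98.6%, 98.0% and 98.0% in TET1-ALT, and 97.6%, 98.2% and 97.05% in TET1-FL. Site 4, at 140871591, had 97.7%, 98.3% and 96.2%, then 97.4%, 97.2% and 95.2%, then 97.05%, 96.4% and 96.95% in the same order of groups. Library ranges of the groups overlapped at both. Site 5, at 140872101, had 93.2%, 91.04% and 90.9% with the empty vector, 92.8%, 92.5% and 90.4% in TET1-ALT, and 89.9%, 92.3% and 92.5% in TET1-FL. The ranges of the groups overlapped there too. Site 6, at 140872230, had 93.8%, 91.97% and 94.1% with the empty vector, 91.4%, 89.8% and 93.4% in TET1-ALT, and 90.4%, 92.6% and 89.6% in TET1-FL. The ranges of the groups overlapped at site 6 as well.

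**Figure D3:**
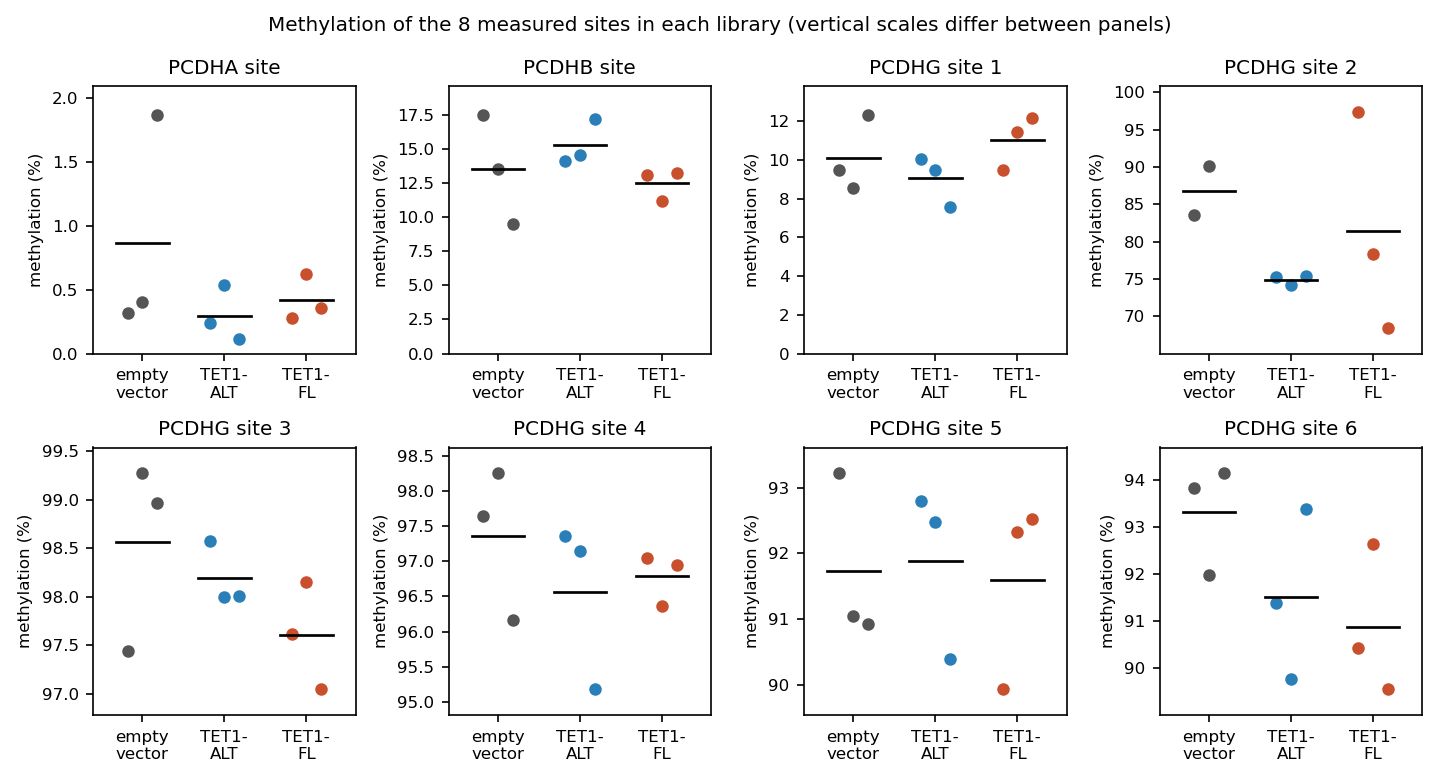
Methylation (vertical axis, percent, with a different scale in each panel, from 0 only for the 3 low sites) of the 8 members in each library (points, replicates 1 to 3 from left to right) by group, with the group mean as a line. Group ranges overlap in most panels, and PCDHG site 2 has the widest spread, from 68.5% to 97.4%.

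The comparison of TET1-FL with the empty vector asked how the full-length form changes methylation. None of the 8 members passed limma at an adjusted p under 0.05, nor did any of the 64313 sites (0%). An unadjusted p under 0.05 was reached by 0 members and by 10.5% of all sites. With 1 library left out, an unadjusted limma p under 0.05 appeared at PCDHG site 3 (0.0233 without empty vector replicate 1), site 2 (0.0137 without TET1-FL replicate 1) and site 6 (0.0351 without TET1-FL replicate 2), with adjusted p of 0.377, 0.495 and 0.529. In each of these 3 refits 1 of the 8 members reached it, beside 6980, 5916 and 5889 of the 64313 sites in the same order. With all libraries, means were lower in TET1-FL at 7 of 8 members and at 66.2% of all sites, with medians of -0.76 and -0.20 points. These medians are not matched for level. Of all sites 37.5% were under 5%, where the average difference was -0.0874 points, against 1 of the 8 members. The 5 sites of the methylated stretch also count as a single place. At 0 members did all TET1-FL libraries lie on 1 side of the empty vector range, beside 15.2% of all sites below it and 2.38% above it. The smallest p was at PCDHG site 6, with 93.3% ± 1.17 (SD, n = 3) in the empty vector group and 90.9% ± 1.59 (SD, n = 3) in TET1-FL. Its difference was -2.43 points (SE 1.23, 95% interval -5.29 to 0.421, limma adjusted p = 0.528). Sites of 80 to 95% across the genome, the class of sites 5 and 6, averaged -1.17 points. Sites over 95%, the class of sites 3 and 4, averaged -0.328 points. The intervals at sites 3, 4 and 5 were -2.34 to 0.431, -2.39 to 1.25 and -2.69 to 2.43 points, so they hold both no difference and the average fall of their class.

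TET1-ALT was compared with the same empty vector libraries. Of the 8 members 0 passed limma, as did 0% of all sites, and 0 members had an unadjusted p under 0.05, beside 7.3% of all sites. Means were lower at 6 of 8 members and at 56.5% of all sites, with medians of -0.68 and -0.0433 points. These medians are likewise not matched for level. Across the genome, sites under 5% averaged -0.0618 points and sites of 80 to 95% -0.334 points in this comparison. The member with all TET1-ALT libraries below the empty vector range was PCDHG site 2, described above with its missing library. Its unadjusted limma p was 0.00552 with the 2 groups fitted alone (adjusted p = 0.767) and 0.0154 without TET1-FL replicate 1 (adjusted p = 0.710). In each of these fits it was the 1 member under 0.05, beside 4180 and 4473 of the 64313 sites. The difference stayed at -11.9 points, while its SE went from 7.64 to 2.33 and 3.44. Both fits leave out TET1-FL replicate 1. PCDHG site 6 had 91.5% ± 1.81 (SD, n = 3) and a difference of -1.80 points (95% interval -4.65 to 1.05, limma adjusted p = 0.829). The PCDHB site and PCDHG site 5 had higher means in TET1-ALT, by 1.75 and 0.16 points, but not without empty vector replicate 3, where the differences were -0.243 and -0.24. For sites 3 and 4 the intervals were -1.75 to 1.02 and -2.61 to 1.03 points.

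Between the TET1 forms, means were lower in TET1-FL at 4 members and higher at 4. In limma 0 of 8 passed, and 0% of all sites, while 0 members and 5.4% of all sites had an unadjusted p under 0.05. The median difference was -0.085 points over the members and -0.0667 over all sites. At PCDHG site 1, TET1-FL had 11.04% ± 1.39 (SD, n = 3) against 9.06% ± 1.29 (SD, n = 3) for TET1-ALT, a difference of 1.99 points (95% interval -0.912 to 4.89, limma adjusted p = 0.978). At PCDHG sites 3 to 6 the differences ran from -0.63 to 0.23 points, with intervals between -3.49 and 2.27.

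**Figure D4:**
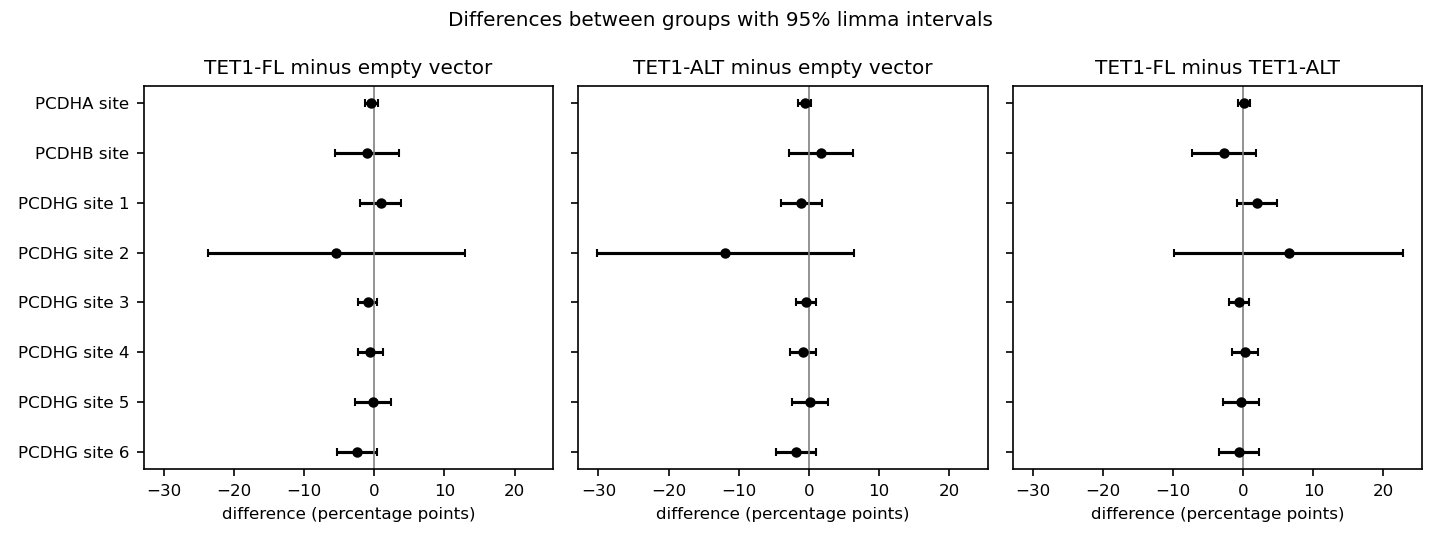
Difference between group means at each member (points, percentage points on the horizontal axis) with its 95% limma interval (bars) for the 3 comparisons. Every interval includes 0, and those of PCDHG site 2 are the widest.

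Averaged per library, the 5 PCDHG members with a value in all 9 libraries differed little between groups. Their mean was 78.3%, 77.8% and 78.5% with the empty vector, 78.03%, 77.4% and 76.9% in TET1-ALT, and 76.9%, 78.2% and 77.7% in TET1-FL. The difference from the empty vector was -0.635 points for TET1-FL (range of library pairs -1.60 to 0.368) and -0.775 for TET1-ALT (-1.60 to 0.214), and TET1-FL differed from TET1-ALT by 0.14 (-1.13 to 1.28). Restricted to the 4 highly methylated sites 3 to 6, a choice made after seeing the data, the libraries had 95.5%, 95.1% and 95.05% with the empty vector, 95.03%, 94.4% and 94.2% in TET1-ALT, and 93.8%, 94.9% and 94.02% in TET1-FL. On these sites both TET1 groups lay below all empty vector libraries, by -1.02 points (-1.78 to -0.178) for TET1-FL and -0.70 points (-1.29 to -0.025) for TET1-ALT. Sites of 80 to 95% across the genome differed by -1.19 and -0.343 points and sites over 95% by -0.349 and -0.0688 points in the same comparisons. TET1-FL also lay below all empty vector libraries in both classes (-1.59 to -0.644 and -0.462 to -0.201) and over all sites (-1.08 to -0.513). TET1-ALT overlapped the empty vector in both classes (-0.888 to 0.438 and -0.227 to 0.164) and over all sites (-0.686 to 0.292). On sites 3 to 6 the gap between the group ranges is the bound nearest to 0. Averaged over all 5 PCDHG members, both TET1 groups overlapped the empty vector. How often averages of 4 neighbouring sites elsewhere lie apart was not computed. Among single sites, 15.2% had TET1-FL and 10.6% had TET1-ALT below the empty vector without overlap. The separation therefore cannot be called particular to this stretch. Both comparisons use the same 3 empty vector libraries.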

How the data were processed

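Methylation was measured by DREAM in 9 libraries of HEK293T DNA, 3 per group. Per the labels' protocols, DNA was spiked with 5 methylation standards, cut with SmaI and XmaI, size selected and amplified with 18 PCR cycles. The deposited values are percent methylation per CCCGGG site, which the authors computed from read ratios and adjusted with the standards, per the series' design text. A value required at least 20 reads, per the labels. The depth of each value is unknown beyond this, and no interval here rests on it. Sites are on hg19, per the submitters' processing notes. Which aligner and caller were used was not given in the sources used here.

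Libraries had 61549 to 72340 sites with a value, the fewest in empty vector replicate 3. All 64313 sites with values in at least 2 libraries per group were fitted with limma 3.58.1 (R 4.3.3) on the percent scale, with a mean per group, trend and robust moderation. A missing value was left out of its site's fit. Benjamini-Hochberg adjustment ran over all sites, with a threshold of 0.05. Per-library means of members used sites with values in all 9 libraries and carry no p-value. Spacing was counted over all 382289 listed sites.

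Alternatives were a replicate block, complete sites, a log2((percent+1)/(101-percent)) scale, no trend and robust moderation, the 2 groups compared alone, centring, medians, other site choices and leaving out each library. The scripts were tested on simulated data. The rule for named sites took extremes of level, difference and spread in each cluster, and in effect covers all 8 members. The members and lists were chosen with earlier results of these data known. No hg19 annotation was used here, so sites are not assigned to single genes, exons or promoters.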

Additional observations from a re-analysis of the deposited data

How the results depend on the processing

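None of the 8 members was called in any of the 3 comparisons under any alternative, and the lowest adjusted p at a member was 0.198. Of 357 refits of their 24 differences, 165 returned the same difference, most of them by construction, and say nothing of stability. Of the 192 that gave another value, 24 reversed, of which 18 left out a library and 6 centred libraries on sites of 80% or more, which adds the same amount to low and high sites. Centring turned TET1-FL minus empty vector to 0.504 (PCDHA site), 0.381 (PCDHG site 4) and 0.814 (site 5), and TET1-FL minus TET1-ALT to 0.0955 (site 3), 0.389 (site 5) and 0.0489 (site 6). Over all sites, centring gave 17666 calls for TET1-FL against the empty vector, where 0 were called without it. Of these, 17154 were higher in TET1-FL and 512 lower, and the median difference over all sites turned from -0.20 to 0.754 points. Leaving out a library gave 0 to 2 calls in this comparison. For TET1-ALT against the empty vector it gave 0 to 4, and between the forms 0 to 0. At an unadjusted p under 0.05 centring gave 22170, 2728 and 19198 sites in place of 6782, 4697 and 3472.

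With libraries left out, 11 of the 24 single-site differences changed sign and ranged as follows. TET1-FL minus empty vector had -0.715 to 0.06 (PCDHA), -3.01 to 0.98 (PCDHB), -13.4 to 1.03 (PCDHG site 2) and -0.60 to 0.70 (site 5). TET1-ALT minus empty vector had -0.243 to 3.75 (PCDHB), -1.85 to 0.0367 (PCDHG site 1) and -0.295 to 0.91 (site 5). TET1-FL minus TET1-ALT had -1.51 to 12.9 (PCDHG site 2), -0.465 to 0.625 (site 4), -1.04 to 0.54 (site 5) and -1.52 to 0.303 (site 6). The other 13 kept their sign but could move by over 1.5 times, such as TET1-FL minus empty vector at PCDHG site 1 (0.133 to 2.02) and TET1-ALT minus empty vector at site 4 (-1.39 to -0.102).

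For the per-library means, 24 of 57 values under the other alternatives equalled the reported value, since PCDHA and PCDHB hold 1 complete site each and the block cannot move a mean. Of the other 33, 18 moved by more than the spread between libraries. For PCDHG these were, for TET1-FL minus empty vector (-0.635), -1.44 by medians, -1.28 over sites of 20 to 95% and 0.313 centred. For TET1-ALT minus empty vector (-0.775) it was -2.17 with the incomplete site 2, and for TET1-FL minus TET1-ALT (0.14) they were 1.20 with that site, -1.02 by medians and 0.822 centred. Site 2 lacks empty vector replicate 3, so its inclusion shifts library means. The PCDHA mean became 0.504 and 0.806 centred for TET1-FL minus the empty vector and minus TET1-ALT. Over all members, TET1-FL minus empty vector (-0.662) became -0.0444 with site 2, -1.13 by medians, -1.28 over sites of 20 to 95% and 0.286 centred. TET1-ALT minus empty vector (-0.384) became -1.22 by medians and -0.82 over sites of 20 to 95%, and TET1-FL minus TET1-ALT (-0.278) became 0.567 with site 2, 0.0933 by medians and 0.405 centred. Means over sites of 20 to 95% could not be formed for PCDHA and PCDHB.

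The values showed no pairing of libraries by replicate number. Deviations from the group means correlated between -0.0153 and 0.0169 in 9 same-numbered pairs over 28187 sites. Of 9 libraries, 1 correlated best with its own number. These correlations cannot tell whether same-numbered libraries shared a culture or day, which the labels do not say. With the replicate block 0 members and 0 sites were called, as without it. Counting a site as measured from 1 library gave 7.19% of the window's listed sites, and requiring all 9 gave 5.04%, beside 5.76%.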
